A study of Homo sapiens with 6 samples.

Results

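The genes described here encode 9 methyltransferases that modify ribosomal RNA without box C/D guide RNAs, plus TRMT112, the small protein that some of them need as a partner. They were chosen by name (BUD23, METTL5, DIMT1, ZCCHC4, NSUN5, RRP8, MRM1, MRM2, MRM3 and TRMT112), and each matched 1 row, so that 10 of the 31966 genes in the deposited count table are members. RNA of 6 samples was sequenced, all from Kasumi-1 cells, a widely used line of human acute myeloid leukaemia (AML). The authors' deposited data are named mRNA sequencing. In 3 control samples the cells expressed a doxycycline-inducible short hairpin RNA against luciferase (shLUC), and in 3 FBL knockdown samples one against FBL (shFBL). Both groups received doxycycline at 100 ng/ml for 72 h, per the series' design text. A single hairpin label is given for FBL, so loss of FBL and any other action of that hairpin cannot be told apart, and the labels do not say whether replicates were grown separately or whether the cells were cloned. The p-values therefore reflect how far these samples varied, and that variation may be purely technical.

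Ribosomal RNA carries methyl groups placed by 2 routes. Fibrillarin, encoded by FBL, adds 2'-O-methyl groups where a box C/D guide RNA pairs with the target, whereas the enzymes described here recognise their sites in the RNA by themselves and mostly methylate bases. BUD23 makes a 7-methylguanosine, METTL5 an N6-methyladenosine and DIMT1 dimethylated adenosines in the RNA of the cytosolic small subunit. ZCCHC4 (N6-methyladenosine), NSUN5 (5-methylcytidine) and RRP8 (1-methyladenosine) act on the cytosolic large subunit, and MRM1, MRM2 and MRM3 place 2'-O-methyl groups on the large ribosomal RNA of mitochondria. BUD23 and METTL5 are stabilised in cells by binding to TRMT112.

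Library totals lay between 85556322 and 103148412 counts, and all 10 members passed the filter on low counts, with 324 (ZCCHC4) to 34346 (TRMT112) counts per library. FBL fell from 558 ± 19.6 to 43.8 ± 10.8 CPM (counts scaled to a common library total; SD, n = 3 in both groups), with every knockdown library at or below 54.0 CPM. Markers of the line were present, with the granule enzyme MPO at 7256 ± 774 CPM (5413 ± 514 CPM in knockdown libraries), the receptor KIT at 84.8 ± 11.7 CPM and RUNX1T1, whose gene is part of the line's fusion, at 11.7 ± 1.4 CPM in controls. Of the 6 markers of the line, MPO fell, the stem cell antigen CD34 rose from 2.55 ± 0.06 to 4.03 ± 0.48 CPM (log2 fold change 0.66, edgeR adjusted p = 0.00240), and KIT, RUNX1T1, RUNX1 and CD33 did not pass. The 5 markers of T cells, epithelium, fibroblasts and liver that had a row summed to between 0.247 and 0.407 CPM in controls and between 0.249 and 0.380 CPM in knockdown libraries, and the liver marker ALB was at 0 in all controls. The libraries also differed in the balance of GC-rich and GC-poor transcripts within groups. The median deviation of 2712 GC-rich genes (60% GC or more) minus that of 6107 GC-poor genes (under 45%) was -0.35, 0.38 and -0.072 on the log2 scale in control replicates 1, 2 and 3 and 0.25, -0.17 and -0.072 in FBL knockdown replicates 1, 2 and 3.

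FBL knockdown was accompanied by lower mRNA of 6 of the 10 genes, a higher level of 1, METTL5, and no call for DIMT1, ZCCHC4 and NSUN5. All 3 mitochondrial enzymes fell, and so did BUD23, RRP8 and TRMT112. Calls rest on an adjusted p below 0.05 in edgeR's quasi-likelihood test with Benjamini-Hochberg adjustment over all 18486 tested genes. Of all tested genes, 32.8% were called in either direction, 17.0% as lower and 15.8% as higher. Under upper-quartile scaling, 58.7% of the calls over all genes were higher in place of 48.2%, while the members' counts stayed at 6 lower and 1 higher. The control and knockdown values did not overlap for the 7 called members (6 lower, 1 higher), beside 45.2% of all tested genes (23.1% lower, 22.1% higher). The median log2 fold change, knockdown against control, was -0.36 over the 10 members and -0.0061 over all tested genes. In all, 3.71% of tested genes had a lower fold change than MRM1, the member that fell most.

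**Figure D1:**
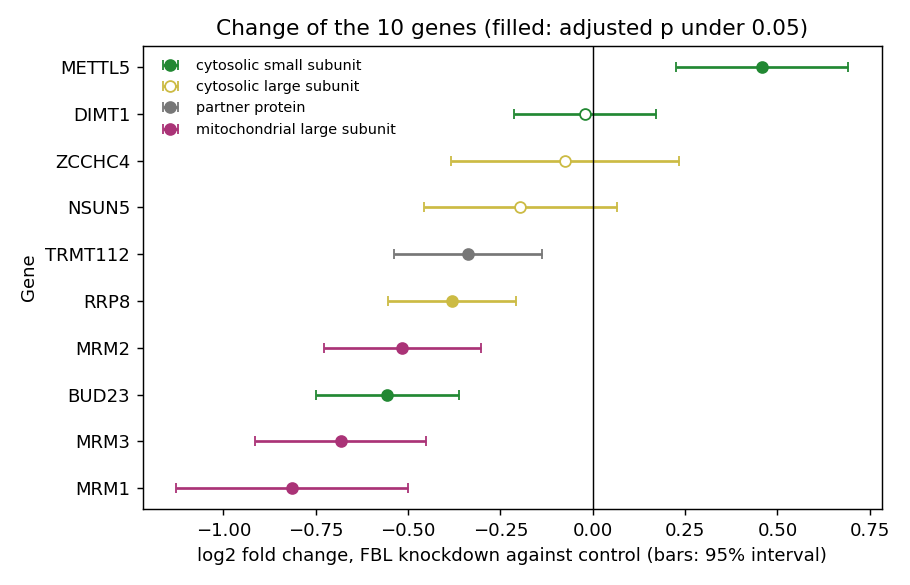
Log2 fold change of each gene, FBL knockdown against control, with 95% intervals from edgeR's quasi-likelihood fit (n = 3 against 3). Filled points passed the adjusted p threshold of 0.05. MRM1, at -0.81, lies furthest to the left, and METTL5, at 0.46, is the point on the right whose interval does not cross 0.

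Levels between genes can be compared per length, here as the authors' deposited RPKM (counts scaled for exon length and library total). TRMT112 had the highest level in controls, at 201 ± 19.6 RPKM (SD, n = 3), followed by NSUN5 at 37.1 ± 5.9 and BUD23 at 18.4 ± 0.4 RPKM. METTL5 (12.7 ± 0.5 RPKM) and MRM1 (12.3 ± 1.7 RPKM) overlapped in their control values. Next came DIMT1 at 8.87 ± 0.59, MRM2 at 6.54 ± 0.29, MRM3 at 5.65 ± 0.41 and RRP8 at 5.05 ± 0.07 RPKM, with no overlap between neighbours in this order. ZCCHC4 was the lowest at 0.981 ± 0.149 RPKM. The length used counts every annotated exon, which is 7944 bases for BUD23 and 6922 bases for RRP8 but 1625 bases for TRMT112, so this order also reflects the annotation. In the knockdown libraries METTL5, at 17.3 ± 2.2 RPKM, lay above BUD23, at 12.5 ± 1.4 RPKM, in all 3 libraries, the reverse of the controls.

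**Figure D2:**
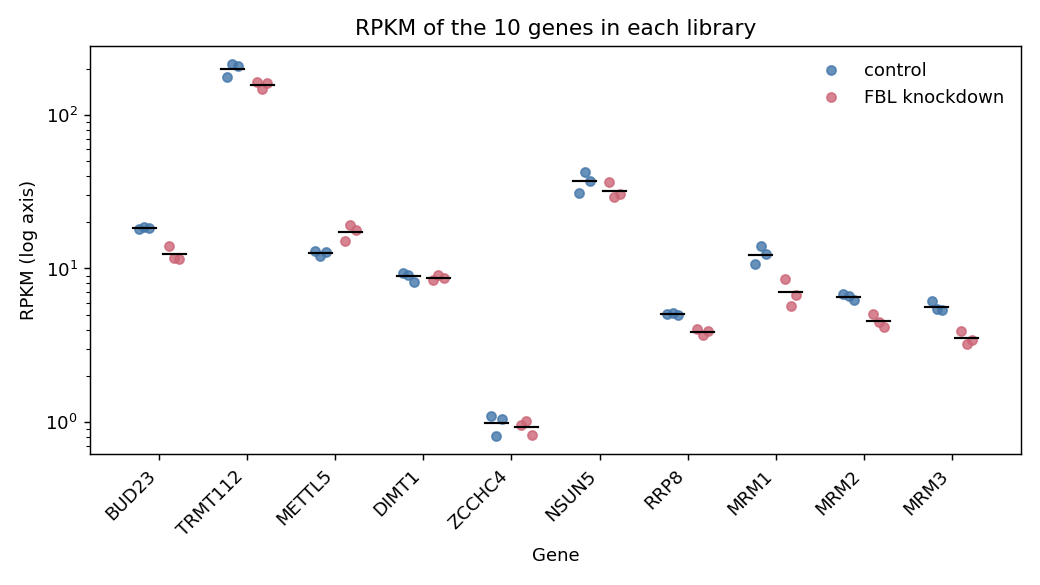
Deposited RPKM of the 10 genes in each library, on a log axis (points: libraries, bars: means of 3). The genes span from ZCCHC4 near 0.981 RPKM to TRMT112 near 201 RPKM in controls, and METTL5 is the gene whose knockdown points all lie above its control points.

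Promoter sequences are shown for the 3 mitochondrial genes, which all fell, and for METTL5, the gene that rose. RefSeq promoters (GRCh38.p14, 250 bases before to 50 after the start) matched all 10 members, TRMT112 with 2 starts. Capitals mark CCGGAAG, a core recognised by ETS factors, CACGTG, the E-box of MYC and USF factors, and TGACGTCA, the cyclic AMP response element, each on either strand. The intervals are chr17:36601333-36601632 (plus strand) for MRM1, chr7:2242156-2242455 (minus strand) for MRM2, chr17:782103-782402 (plus strand) for MRM3 and chr2:169824856-169825155 (minus strand) for METTL5.
MRM1: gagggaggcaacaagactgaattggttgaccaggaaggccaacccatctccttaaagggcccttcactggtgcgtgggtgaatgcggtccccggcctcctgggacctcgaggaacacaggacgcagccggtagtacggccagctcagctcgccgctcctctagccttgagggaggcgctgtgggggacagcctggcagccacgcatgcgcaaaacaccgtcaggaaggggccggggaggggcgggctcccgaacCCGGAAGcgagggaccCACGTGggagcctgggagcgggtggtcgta
MRM2: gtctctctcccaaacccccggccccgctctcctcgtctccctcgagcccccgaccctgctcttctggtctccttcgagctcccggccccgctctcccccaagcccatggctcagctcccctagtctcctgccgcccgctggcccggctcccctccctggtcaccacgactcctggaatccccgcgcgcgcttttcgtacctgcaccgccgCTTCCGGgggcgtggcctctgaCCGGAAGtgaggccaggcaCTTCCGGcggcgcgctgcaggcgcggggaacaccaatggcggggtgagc
MRM3: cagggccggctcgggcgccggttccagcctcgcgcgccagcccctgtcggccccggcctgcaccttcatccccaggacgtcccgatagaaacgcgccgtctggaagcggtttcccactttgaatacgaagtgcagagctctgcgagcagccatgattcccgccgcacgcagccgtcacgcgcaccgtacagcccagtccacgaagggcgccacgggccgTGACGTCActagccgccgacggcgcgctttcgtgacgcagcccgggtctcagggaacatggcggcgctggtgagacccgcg
METTL5: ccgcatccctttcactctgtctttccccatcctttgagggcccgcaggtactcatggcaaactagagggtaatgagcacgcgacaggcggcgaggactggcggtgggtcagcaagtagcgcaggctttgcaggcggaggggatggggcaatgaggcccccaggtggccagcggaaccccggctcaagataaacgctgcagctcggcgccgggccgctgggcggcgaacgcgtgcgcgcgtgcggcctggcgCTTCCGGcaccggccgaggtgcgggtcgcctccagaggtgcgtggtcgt
MRM1 holds CCGGAAG and CACGTG close to the start, MRM2 holds CCGGAAG 3 times, MRM3 holds TGACGTCA, and METTL5 holds CCGGAAG once on the opposite strand. CCGGAAG was found in promoters of 5 of the 10 members (METTL5, MRM1, MRM2, NSUN5 and TRMT112), beside 16.3% of the 15866 RefSeq promoters of tested genes. The 5 include the gene that rose, 3 that fell and 1 with no call. CACGTG (9.30% of those promoters) and TGACGTCA (2.76%) were each found in 1 member. Also searched on both strands were the palindrome of NRF1 (9.75% of those promoters, 1 member), AAGATGGCG of YY1 (3.27%, 1 member), GGGCGG of SP factors (65.4%, 9 members), the CCAAT box CCAAT (33.9%, 6 members) and the octamer ATTTGCAT (1.48%, 1 member). Members were counted by gene if any of their promoters matched, whereas the shares count single promoters. By promoter, CCGGAAG was in 6 of the 11 that belong to members. A match of letters is a description and does not show binding.

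The first group acts on the small subunit of the cytosolic ribosome. BUD23 (ENSG00000071462, GRCh38 chromosome 7, 73683025 to 73705161, plus strand) is also needed for export of the small subunit from the nucleus. It stood at 144, 148 and 145 CPM in control replicates 1 to 3 and, after knockdown, at 110.2, 94.4 and 92.9 CPM. The controls lay close together and every knockdown library was below them. The fall was 1.47-fold (log2 fold change -0.56 ± 0.09 SE, edgeR adjusted p = 0.000853). BUD23 shares 359 exonic bases with DNAJC30 and 662 with STX1A, both on the other strand. DNAJC30 did not pass (log2 fold change -0.11 ± 0.10, edgeR adjusted p = 0.427). STX1A was higher (0.46 ± 0.15, edgeR adjusted p = 0.0422), a call lost in 12 of 18 alternative fits. How reads of the shared bases were divided was not tested.

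METTL5 (ENSG00000138382, chromosome 2, 169810081 to 169824931, minus strand), the catalytic subunit of the small-subunit N6-methyladenosine enzyme, went the other way. Its level was 37.5, 34.6 and 36.8 CPM in the controls and 42.4, 55.9 and 51.3 CPM in the knockdown libraries. All 3 knockdown values were above all controls, with replicate 1 the nearest to them. The rise was 1.37-fold (log2 fold change 0.46 ± 0.11 SE, edgeR adjusted p = 0.00736), and 84.9% of tested genes had a lower fold change. Exons of METTL5 share 572 of its 2865 exonic bases with the RNA-binding protein gene SSB on the other strand. SSB was at -0.31 ± 0.15, opposite in sign to METTL5, and did not pass (edgeR adjusted p = 0.131). SSB was called lower in 3 of 19 alternative fits. These were the fit without control replicate 2 and the fits with GC correction or without the libraries furthest from their group in GC balance. The counting strand is not given in the sources used here, and the part of shared reads in the METTL5 value was not tested.

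DIMT1 (ENSG00000086189, chromosome 5, 62387254 to 62403939, minus strand), which is also required for early processing of the small-subunit precursor, ranged from 30.6 to 34.9 CPM in controls and from 31.2 to 34.2 CPM in knockdown libraries. The groups overlapped. Its log2 fold change of -0.021 had a 95% interval from -0.21 to 0.17 (edgeR adjusted p = 0.878), and the sign turned to 0.045 under upper-quartile scaling.

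TRMT112 (ENSG00000173113, chromosome 11, 64316460 to 64318084, minus strand) serves several methyltransferases at once, including enzymes for transfer RNA and for a translation release factor. It stood at 289.9, 346 and 340 CPM in the controls, where replicate 1 was the lowest, and after knockdown at 263, 244 and 265 CPM. The groups did not overlap, and the fall was 1.26-fold (log2 fold change -0.34 ± 0.09 SE, edgeR adjusted p = 0.0154). This call was lost without control replicate 3 (edgeR adjusted p = 0.0787), without FBL knockdown replicate 2 (0.0740) and without FBL knockdown replicate 3 (0.0807). The pseudogene TRMT112P6, a processed copy, took 7.88% to 10.8% of the counts of both rows together and was at -0.23 ± 0.12 (edgeR adjusted p = 0.148). Another copy, TRMT112P3, had 0 CPM in 5 of the 6 libraries. The last 284 exonic bases (17.5%) overlap ESRRA, a nuclear receptor gene on the other strand that itself fell (-0.46 ± 0.09, edgeR adjusted p = 0.00351), and how their reads were divided was not tested.

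Because BUD23 and METTL5 share TRMT112, their RPKM were also taken relative to it within each library, which removes library scaling but not GC balance. METTL5 per TRMT112 was 0.0733, 0.0567 and 0.0615 in the controls and 0.0914, 0.130 and 0.110 in the knockdown libraries. Within each group the METTL5 to TRMT112 ratio was lower where the library's GC balance was higher. Between groups it was higher in 3 of 3 knockdown libraries, by 0.78 on the log2 scale (p = 0.1 in a 2-sided exact permutation test, which cannot go lower for 3 against 3 libraries; 0.167 after Benjamini-Hochberg adjustment over the 5 ratios examined). BUD23 per TRMT112 was 0.102, 0.0878 and 0.0875 in the controls and 0.0857, 0.0792 and 0.0717 in the knockdown libraries. The lowest control and the highest knockdown value nearly touched, and the difference was -0.23 on the log2 scale (2-sided exact permutation test p = 0.1, adjusted 0.167). The design cannot reach a p of 0.05 for such ratios.

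**Figure D3:**
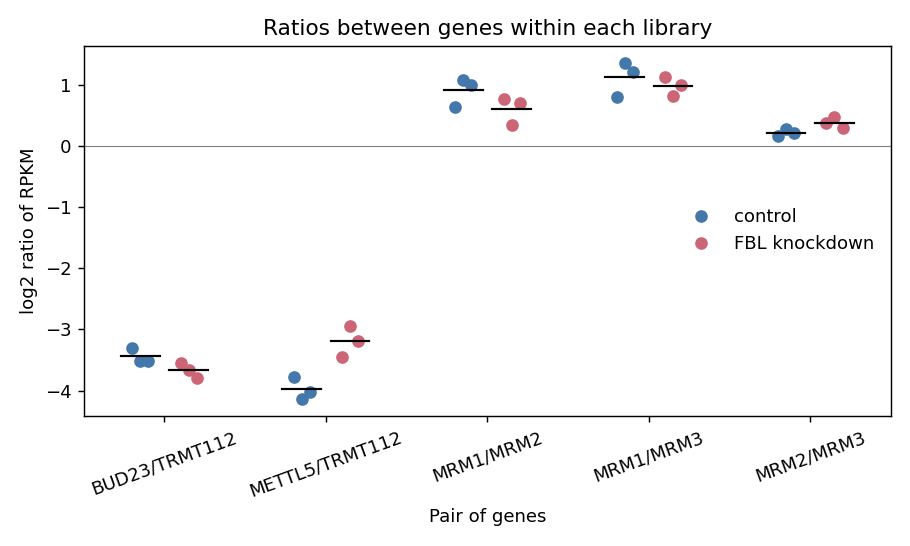
Log2 ratio of RPKM between pairs of genes within each library (points: libraries, bars: means of 3). METTL5/TRMT112 is higher in the knockdown libraries, by 0.78, whereas MRM1/MRM2 and MRM1/MRM3 overlap between groups.

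The second group acts on the large subunit of the cytosolic ribosome. Of its 3 genes 1 was called, a share near the 32.8% of all tested genes called in either direction. RRP8 (ENSG00000132275, chromosome 11, 6595075 to 6603620, minus strand), also known as nucleomethylin, has a further role in silencing of ribosomal DNA together with SIRT1 and SUV39H1. Its relative spread was the smallest of the 10 genes in both groups, at 35.1, 35.3 and 34.4 CPM in controls and 27.4, 25.9 and 27.1 CPM in knockdown libraries. The groups were well apart, and the fall was 1.30-fold (log2 fold change -0.38 ± 0.08 SE, edgeR adjusted p = 0.00408). Both of its silencing partners fell as well, the deacetylase SIRT1 by 0.52 ± 0.14 and the histone methyltransferase SUV39H1 by 0.32 ± 0.09 on the log2 scale (edgeR adjusted p = 0.0170 for each), beside 17.0% of all tested genes. Both partner calls were lost without control replicate 3, without FBL knockdown replicate 2 and without FBL knockdown replicate 3. A fit with the replicate number as a block lost them too (edgeR adjusted p = 0.0637 for SIRT1 and 0.0739 for SUV39H1).

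NSUN5 (ENSG00000130305, chromosome 7, 73302517 to 73308867, minus strand) belongs to the NOL1/NOP2/SUN family of cytosine methyltransferases and lies, like BUD23, in the segment deleted in Williams-Beuren syndrome. Its values were 107, 146 and 127 CPM in controls and 123, 102 and 106 CPM in knockdown libraries. The groups overlapped, since knockdown replicate 1 lay above control replicate 1. The log2 fold change of -0.20 had a 95% interval from -0.46 to 0.06 (edgeR adjusted p = 0.231). NSUN5 was not called in 18 of 19 alternatives, where it lay between -0.31 (without control replicate 1, edgeR adjusted p = 0.0509) and -0.084 (without control replicate 2, edgeR adjusted p = 0.568). The exception was a per-library correction for GC content, added after the data were seen, at -0.25 (edgeR adjusted p = 0.0128). The other fit added for GC balance, without control replicate 2 and FBL knockdown replicate 1, left it at -0.16 with no call (edgeR adjusted p = 0.220).

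Reads of NSUN5 are hard to assign, because the transcribed pseudogenes NSUN5P1 and NSUN5P2 on the same chromosome are near-identical copies. NSUN5P2 had 87.8 ± 7.4 CPM in the control group and 91.3 ± 5.3 CPM in the knockdown group, and NSUN5P1 33.8 ± 3.7 and 33.3 ± 3.1 CPM (SD, n = 3 in both groups). Neither passed the test (edgeR adjusted p = 0.667 and 0.901). NSUN5 held 48.4%, 52.1% and 51.9% of the counts of all 3 rows in the controls and 48.0%, 46.0% and 46.7% in the knockdown libraries. The share was lower in every knockdown library, although control replicate 1 and knockdown replicate 1 differed little. Summed over the 3 rows, the control level was 248 ± 29.6 CPM and the knockdown level 235 ± 18.5 CPM (SD, n = 3 in both groups; p = 0.7, exact permutation test, 2-sided).

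ZCCHC4 (ENSG00000168228, chromosome 4, 25312785 to 25370383, plus strand), a zinc-finger enzyme, was the weakest gene. It ranged from 3.55 to 4.80 CPM in controls and from 3.66 to 4.48 CPM in knockdown libraries, so that the knockdown values lay inside the control range. The 95% interval of its log2 fold change ran from -0.38 to 0.23 (edgeR adjusted p = 0.718), and these samples do not tell apart values within it.

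The third group, the mitochondrial enzymes, fell in 3 of 3 cases, beside 17.0% of all tested genes called lower. Groups stood apart as lower for 23.1% of all tested genes. MRM1 (ENSG00000278619, chromosome 17, 36601572 to 36608971, plus strand) stood at 19.8, 25.8 and 23.0 CPM in controls and 15.6, 10.8 and 12.6 CPM in knockdown libraries. Both groups were spread widely but did not overlap, and the fall was 1.76-fold (log2 fold change -0.81 ± 0.14 SE, edgeR adjusted p = 0.00157). MRM2 (ENSG00000122687, chromosome 7, 2234231 to 2242198, minus strand), a relative of the bacterial heat-shock methyltransferase RrmJ, went from 19.4, 18.6 and 17.7 CPM to 14.1, 12.97 and 11.9 CPM. No knockdown value reached the control range, and the fall was 1.43-fold (-0.52 ± 0.10 SE, edgeR adjusted p = 0.00224).

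MRM3 (ENSG00000171861, chromosome 17, 782273 to 792509, plus strand) modifies the nucleotide next to that of MRM2, in the loop where the large subunit receives transfer RNA. It stood at 12.7, 11.2 and 11.1 CPM in controls and at 7.93, 6.76 and 7.07 CPM in knockdown libraries. Its promoter, shown above, is the one with TGACGTCA. The fall was 1.60-fold (log2 fold change -0.68 ± 0.11 SE, edgeR adjusted p = 0.000758), the smallest p among the 10 genes. MRM3 shares 721 exonic bases, or 34.9% of its exonic length, with GLOD4, which starts head to head with it on the other strand. GLOD4 fell too (-0.59 ± 0.09, edgeR adjusted p = 0.000961), and without a stated counting strand the reads of the shared stretch cannot be told apart. By a fixed rule, the genes of at least 10 CPM whose log2 CPM was most like that of MRM3 over the 6 libraries were the splicing factors PRPF19 and DHX38 and the RNA adaptor SRRT, each with Pearson r = 0.999 among 7209 candidates. Their log2 fold changes were -0.61, -1.14 and -1.03, and the 6 points share the group difference and the libraries' depth and composition.

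The 3 mitochondrial enzymes were compared with each other within libraries. MRM1 per MRM2 was 1.56, 2.12 and 1.99 in controls and 1.69, 1.27 and 1.63 in knockdown libraries, with overlap (log2 difference -0.30, 2-sided exact permutation test p = 0.3, adjusted 0.375). MRM1 per MRM3 overlapped as well (log2 difference -0.14, 2-sided exact permutation test p = 0.5). MRM2 per MRM3 was 1.11, 1.21 and 1.16 in controls and 1.29, 1.39 and 1.22 in knockdown libraries, so that the groups stood apart narrowly (log2 difference 0.16, 2-sided exact permutation test p = 0.1, adjusted 0.167). Unequal change among the 3 genes was thus not resolved by this test. Their substrate, the large mitochondrial ribosomal RNA MT-RNR2, was chosen for mention after its values were seen, as was MT-RNR1. It moved in the opposite direction, from 11040 ± 820 to 18433 ± 2158 CPM (SD, n = 3 in both groups; log2 fold change 0.74 ± 0.11 SE, edgeR adjusted p = 0.000709). MT-RNR1, the small mitochondrial ribosomal RNA and no substrate of these 3 enzymes, rose too, from 2584 ± 350 to 3933 ± 564 CPM (log2 fold change 0.61 ± 0.13 SE, edgeR adjusted p = 0.00460). The data are named mRNA sequencing, and how fully the libraries captured these ribosomal RNAs was not tested.

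Within groups, NSUN5 and MRM1 followed the order of the libraries in GC balance, and METTL5 followed it in reverse. No other member followed it in either direction in both groups. NSUN5 and MRM1, whose longest transcripts are 58.4% and 63.0% GC, were highest in control replicate 2 and FBL knockdown replicate 1 and lowest in control replicate 1 and FBL knockdown replicate 2. MRM1, for example, deviated from its group mean by -0.20, 0.18 and 0.016 in control replicates 1 to 3 and by 0.28, -0.26 and -0.025 in knockdown replicates 1 to 3 on the log2 scale. METTL5, at 40.1% GC, was lowest in control replicate 2 and FBL knockdown replicate 1 and highest in control replicate 1 and FBL knockdown replicate 2. MRM3, at 55.2% GC, was highest in control replicate 1, the control with the lowest GC balance, and MRM2, at 50.3% GC, was highest there as well. RRP8, at 47.1% GC, deviated by 0.05 or less in every library. After a per-library GC correction MRM1 was at -0.91 and METTL5 at 0.42 (edgeR adjusted p = 2.42e-06 and 0.000213). Without control replicate 2 and FBL knockdown replicate 1 they were at -0.86 and 0.54 (edgeR adjusted p = 4.99e-05 and 0.000268), so both calls held in either fit, which were added after the data were seen.

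**Figure D4:**
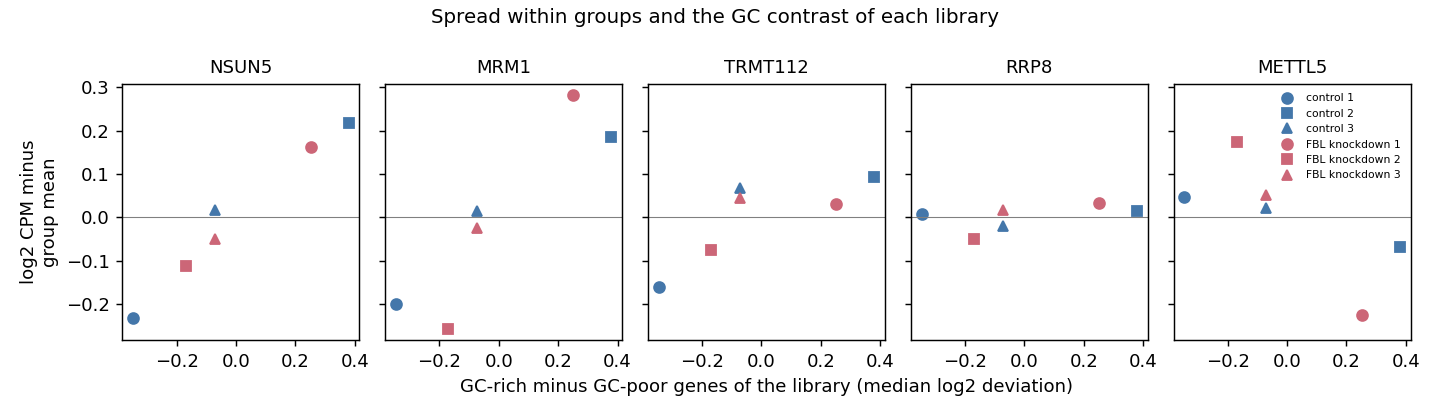
Deviation of log2 CPM from the group mean for NSUN5, MRM1, TRMT112, RRP8 and METTL5 (vertical axis) against each library's GC-rich minus GC-poor contrast (horizontal axis, log2; circles, squares and triangles: replicates 1, 2 and 3). Within each group NSUN5 and MRM1 climb from left to right and METTL5 descends, and RRP8 stays near 0.

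Related genes were read from 5 lists by role, 24 genes in all, of which 12 were lower and 1 higher with a median log2 fold change of -0.28. Of all tested genes, 17.0% were lower and 15.8% higher, with a median of -0.0061. Among 5 other methyltransferases that bind TRMT112, 1 fell and 0 rose, a share near the 17.0% of all tested genes that fell. It was the transfer RNA enzyme TRMT11 (-0.61 ± 0.15, edgeR adjusted p = 0.00977), a gene of 1.49 CPM over all libraries that lost its call without control replicate 3 or FBL knockdown replicate 3. The release-factor methyltransferase N6AMT1, the transfer RNA enzymes ALKBH8 and THUMPD3, and THUMPD2 did not pass.

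Of 6 other modifying enzymes and cofactors of cytosolic ribosomal RNA, 3 fell and 1 rose (all tested genes: 17.0% lower, 15.8% higher). FTSJ3, a nucleolar 2'-O-methyltransferase, fell by 1.201 ± 0.147 and the cytosine methyltransferase NOP2 by 0.93 ± 0.12 on the log2 scale (edgeR adjusted p = 0.000208 and 0.000228), both fold changes being below that of MRM1. EMG1, which methylates a pseudouridine of the small subunit, was higher at 0.25 ± 0.08 (edgeR adjusted p = 0.0292), from 101 ± 3.3 to 120.4 ± 3.7 CPM (SD, n = 3 in both groups). The EMG1 call was lost in 8 of 19 alternatives, among them the omission of any control replicate and of FBL knockdown replicate 2 or 3.

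Among 7 other genes for modification of mitochondrial ribosomal RNA, 4 fell and 0 rose, with a median of -0.40 (all tested genes: 17.0% lower). The pseudouridine synthase RPUSD4 fell by 0.57 ± 0.08 and the dimethyladenosine transferase TFB1M by 0.77 ± 0.13 on the log2 scale (edgeR adjusted p = 0.000470 and 0.00109). In the NSUN family outside ribosomal RNA, 2 of 4 genes fell and 0 rose beside the same 17.0%, including the transfer RNA enzyme NSUN2 (-0.63 ± 0.10, edgeR adjusted p = 0.00100), beside NSUN5 with no call. The lists and the members were chosen with earlier results of these data known, so these counts are a description and not a test of the pathway.

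**Figure D5:**
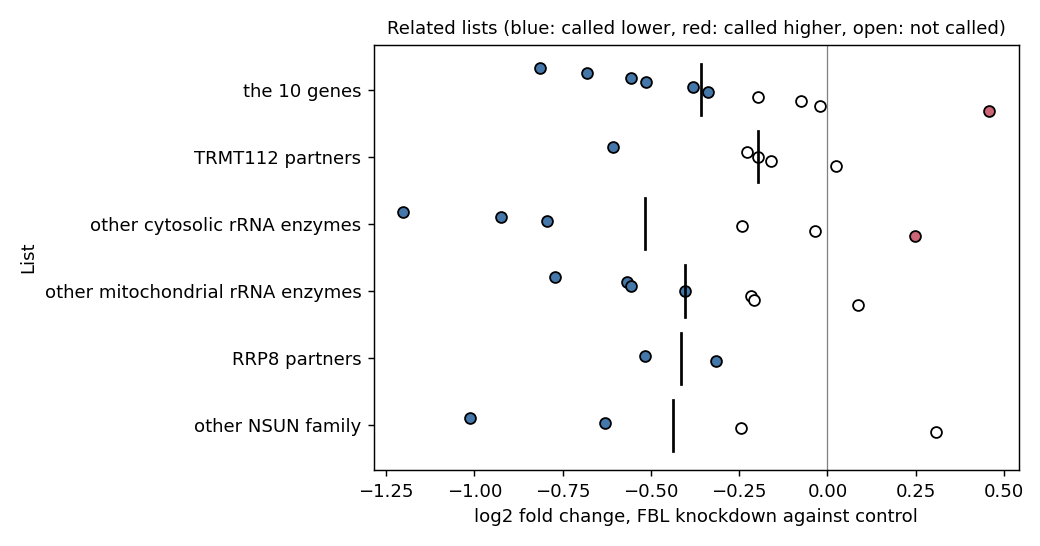
Log2 fold changes of the 10 genes and of 5 related lists (points: genes, vertical bars: list medians; blue: called lower, red: called higher, open: not called by edgeR at 0.05). Most points lie left of 0, and METTL5 in the top row and EMG1 in the third row are the red points.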

How the data were processed

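The authors deposited whole-number counts per Ensembl gene for 6 libraries, with gene lengths, and a table of RPKM. Per the submitters' processing notes, the tools were featureCounts, edgeR, HISAT2 and cutadapt 1.18 with build GRCh38. The counting strand and the treatment of multi-mapping reads were not given in the sources used here. RPKM recomputed from the counts with TMM factors matched each of the 191796 values that the authors deposited (relative tolerance 1e-06). Deposited lengths equalled the union of GENCODE release 29 exons for 30444 of 31848 matched genes, and positions come from that release. Symbols were matched to the row with the highest count.

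Tests used R 4.3.3 with edgeR 4.0.16 (filterByExpr, TMM, estimateDisp, then glmQLFit without the legacy option, on group alone, and glmQLFTest), limma 3.58.1 and DESeq2 1.42.0. Of 31966 genes, 18486 were tested. SE came from the quasi-likelihood F statistic, and CPM is relative to TMM-scaled totals. Ratios used exact permutation tests. The markers MS4A1, KRT19 and DCN matched no row and are not analysed here.

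All 10 members, FBL, copies of members and, per list, up to 2 genes in each direction with the smallest p past the threshold at 1 CPM or more were to be named. Neighbours that share bases with members, and the unmoved members of the TRMT112 list, were named after their values were seen. Members, lists and rules were chosen with earlier results of these data known. Alternatives covered scaling, filters, other tests, a replicate block, RPKM with pseudocounts and leaving out each library. The GC correction, the fit without the 2 libraries that stood furthest from their group in GC balance and the legacy dispersion of edgeR were added after the data were seen. Protein sequences were not used here.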

Additional observations from a re-analysis of the deposited data

How the results depend on the processing

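Of 189 member values under alternatives, 176 kept direction and call. BUD23, METTL5, RRP8, MRM1, MRM2 and MRM3 kept both in all 19 settings run, with METTL5 between 0.37 and 0.56 and MRM1 between -0.97 and -0.69 on the log2 scale. TRMT112 lost its call in 4, including the replicate block (-0.33, edgeR adjusted p = 0.0623). The number of members called higher was 1 throughout, and 5 to 6 were called lower when a replicate was left out, against 7 after GC correction.

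The sign turned for genes with no call in any setting where it turned. For DIMT1 it was 0.045 under upper-quartile scaling, 0.029 with the stricter filter and 0.035 without the 2 libraries furthest from their group in GC balance. When a replicate was left out, DIMT1 ranged from -0.077 to 0.014, ZCCHC4 from -0.20 to 0.027 and NSUN5P1 from -0.10 to 0.056. NSUN5P1 was at 0.044, 0.029 and 0.010 under the first 3 settings named, and NSUN5P2 at -0.028 after GC correction. The cause was not tested.

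All genes called numbered 6061, and from 3923 (without FBL knockdown replicate 2) to 6943 when a replicate was left out. With a replicate block 3833 were called. The labels do not say whether the numbers pair the samples. Deviations of same-numbered libraries correlated at -0.28, -0.20 and 0.04 over genes, and 1 of 3 control libraries correlated best with its own number. With 3 libraries per group that also differ in GC balance, these values cannot settle pairing. Over the related lists, 12 were lower and 1 higher. With the stricter filter 7 were lower, because fewer genes were tested. None were higher (0) with library size only, with no filter and with the block, 2 were without the 2 libraries, and 0 to 1 when a replicate was left out. FBL ranged from -3.85 to -3.49. The METTL5/TRMT112 difference ranged from 0.66 to 0.91, BUD23/TRMT112 from -0.29 to -0.16, MRM1/MRM2 from -0.44 to -0.17, MRM1/MRM3 from -0.30 to -0.02 and MRM2/MRM3 from 0.12 to 0.21 when a replicate was left out.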
